A study of Alternanthera philoxeroides with 2 samples.

Results

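In the root transcriptome of alligator weed (Alternanthera philoxeroides), 30 groups of related assembled sequences held at least one sequence that was 2-fold or more higher in potassium-deprived roots and at least one that was 2-fold or more lower. Their 97 members, 47 higher and 50 lower, were taken from 64763 unigenes in all. A unigene is an assembled sequence taken to stand for a transcript, and 26027 of them carry an ID of the form cluster and contig number. The members were chosen by their measured ratio. Of the cluster contigs, those with at least 100 fragments in the 2 libraries together were kept (15348), the FPKM (fragments per kilobase of contig and M fragments of the library) under low potassium was divided by that in the control, an FPKM of 0 was set to 0.01, and clusters holding both a ratio of 2 or more and a ratio of 0.5 or less were taken. The other 50 contigs of these clusters, 28 with 100 fragments or more and 22 with fewer, are given beside them where a result needs it.

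RNA came from roots of plants grown from shoots collected in a university test field, and no number of plants is given in the sources used here. All plants spent 10 days in hydroponic solution. The control group then stayed in normal solution for 7 days, and the low-potassium group was moved for 7 days to a solution lacking K2SO4, so that potassium supply, sulfate supply and the transfer itself cannot be told apart. Depth was 18.9 M fragments for the control and 16.2 M for the other library. With 1 library per condition there was no replicate check and no test between conditions; the exact 95% intervals below cover counting error alone. In RNA from whole roots, fewer cells of a type and less RNA per cell cannot be told apart. The label of the tissue could not be checked against marker genes, because the files do not pair IDs with gene names, and contigs are therefore described by ID, level, length and base composition.

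Potassium is the most abundant cation of plant cells, and roots take it up through channels and high-affinity transporters whose expression responds to supply. When transcripts are assembled without a genome, alleles, copies of a duplicated gene, splice forms and transcripts of related genes that share stretches of sequence can end up as several contigs of one cluster. A difference in opposite directions within a cluster is thus a difference between sequences that the assembly put together, and it may pass unseen when a cluster is summed. Which of these kinds the contigs belong to was not tested.

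Clusters with members in both directions were few. Among 4511 clusters with at least 2 contigs of 100 fragments or more, the 30 were 0.665%. A further 14.2% held higher contigs and none lower, 4.21% lower contigs and none higher, and 81.0% neither. Over all cluster contigs with 100 fragments or more, 9.43% lay at or above the upper limit and 2.95% at or below the lower one; the rule used these same ratios, so nothing is read from the members' own counts. In 20 of the 30 clusters there was exactly 1 higher and 1 lower member. In 3 clusters there were 1 higher and 2 lower members, in 3 others 2 higher and 1 lower, and 1 cluster each held 2 and 2, 5 and 1, 3 and 5, and 8 and 13 higher and lower members. The last of these, CL6237, and CL1922 with 3 and 5 together held 29 of the 97 members.

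**Figure D1:**
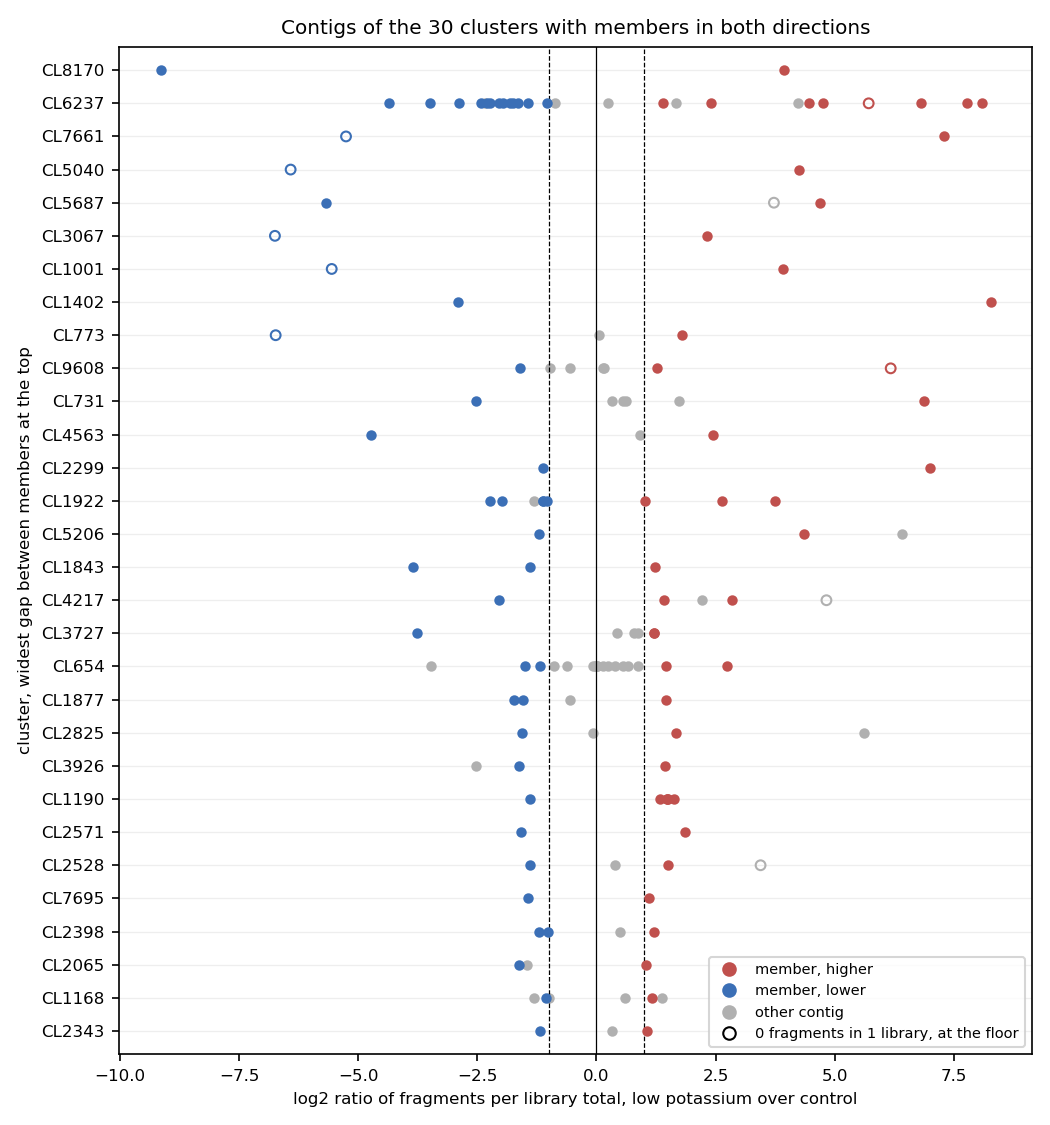
Log2 ratio of fragments per library total, low potassium over control, for every contig of the 30 clusters (red, higher members; blue, lower members; grey, other contigs; open, 0 fragments in 1 library, drawn at the ratio to a floor of 3 fragments; dashed lines, 2-fold). CL8170 at the top has the widest gap between its members by the interval bounds and CL2343 at the bottom the narrowest.

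The members ranged from just past 2-fold to 309-fold higher and 565-fold lower. Higher members had a median ratio of 3.64-fold and lower members a median of 3.35-fold, where a count of 0 was replaced by a floor of 3 fragments per library. Between 2-fold and 4-fold lay 24 of the 47 higher and 29 of the 50 lower members. At least 16-fold apart were 14 of the 47 higher and 9 of the 50 lower members. Of all 15348 cluster contigs with 100 fragments or more, 98 (0.639%) were that much higher and 35 (0.228%) that much lower. Those past the 2-fold limits numbered 1447 higher and 452 lower. As the rule chose the members by these ratios, the shares are given as a description. CL5040, CL5687, CL6237 and CL7661 held members of both kinds at least 16-fold apart. In 40 higher and 37 lower members the whole counting interval lay beyond 2-fold. No fragment was assigned in the control library to 2 of the higher members, and none in the low-potassium library to 5 of the lower members. In the authors' deposited table, 96 of the 97 members have an FDR of 0.001 or less. It comes from a test between the 2 libraries that no header names. The rule chose members with 100 fragments or more and ratios beyond 2-fold, which favours a low FDR. That count is therefore a description and no support.

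The library scaling bears on the higher members. The median log2 ratio over the 26582 unigenes with 100 fragments or more was 0.35, and scaling by TMM, a method that sets most unigenes near no difference, adds -0.38 to every log2 ratio. Relative to that centre, 36 of the 47 higher members and all 50 lower members were still at least 2-fold apart. With the rule rerun on TMM ratios, 25 clusters qualified, of which 23 were among the 30; CL1168, CL1843, CL2065, CL2343, CL2398, CL3727 and CL7695 no longer did, and CL1235 and CL1694 came in.

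Just inside the upper limit were CL1922.Contig8_All, 2.01-fold higher (1.86 to 2.18), and CL2065.Contig1_All, 2.05-fold higher (1.80 to 2.34). Just outside it were CL4563.Contig2_All at 1.89-fold (1.83 to 1.96) and CL654.Contig18_All at 1.83-fold (1.28 to 2.63). On the other side, CL2398.Contig3_All was 2.03-fold lower (1.93 to 2.15) and CL1922.Contig1_All 2.05-fold lower (1.99 to 2.10), while CL9608.Contig4_All at 1.96-fold (1.5 to 2.59) and CL654.Contig4_All at 1.85-fold (1.61 to 2.13) fell short. The intervals of 7 of these 8 contigs, that of CL4563.Contig2_All excepted, hold 2, so the counts do not place those contigs on one side of the limit.

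The clusters with the widest gaps were mostly pairs that exchanged places. CL8170 consists of 2 contigs of nearly the same length, 264 and 266 bases. CL8170.Contig1_All had 660 fragments in the control library but 1 in the low-potassium library, which is 132 and 0.234 FPKM, a 565-fold lower share (counting interval 101 to 22359). CL8170.Contig2_All had 42 and 554 fragments, which is 8.34 and 128 FPKM, 15.4-fold higher (11.2 to 21.6). The first contig thus made up 94.1% of the FPKM of the cluster in the control and the second 99.8% under low potassium, at near-equal FPKM sums of 140.4 and 128.7. No read with several placements fell on either contig.

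CL7661, with contigs of 587 and 599 bases, showed the same exchange at a lower level. CL7661.Contig2_All had 134 fragments in the control and 0 under low potassium (12.1 and 0 FPKM), and was 38.3-fold lower against the floor of 3 fragments. CL7661.Contig1_All had 1 and 134 fragments (0.0882 and 13.8 FPKM), 156-fold higher (27.6 to 6226). The 2 contigs differed in base composition, with 53.5% and 59.3% G and C. Ratios against the floor hold no counting error of the larger count. The exact interval for CL7661.Contig2_All, which does, begins at 30.7-fold.

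CL5040 was poor in G and C, with 29.6% and 31.9% in its contigs of 496 and 471 bases. CL5040.Contig1_All had 300 fragments in the control and 0 under low potassium (31.9 and 0 FPKM). It was 85.6-fold lower against the floor, and at least 69.2-fold by the exact interval. CL5040.Contig2_All had 8 and 130 fragments (0.897 and 17.0 FPKM), 19.0-fold higher (9.35 to 44.9). Here the summed fragments of the cluster fell by 1.02 on the log2 scale as well.

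CL5687 holds 3 short contigs. CL5687.Contig3_All, of 267 bases, had 301 and 5 fragments (59.5 and 1.15 FPKM), 51.6-fold lower (21.8 to 160). CL5687.Contig1_All, of 275 bases, had 26 and 579 fragments (4.99 and 130 FPKM), 26.0-fold higher (17.6 to 40.1). The remaining contig, CL5687.Contig2_All, fell short of 100 fragments with 0 and 34.

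In CL3067 and CL1001 the contig that led in control roots had no fragment under low potassium. CL3067.Contig2_All, of 206 bases, had 377 and 0 fragments (96.6 and 0 FPKM), 108-fold lower against the floor and at least 87.1-fold by the exact interval. Its partner CL3067.Contig1_All was detected well in both libraries, with 61 and 262 fragments (12.0 and 60.3 FPKM), 5.02-fold higher (3.78 to 6.74). CL1001.Contig2_All had 165 and 0 fragments (40.9 and 0 FPKM), 47.1-fold lower against the floor and at least 37.9-fold by the exact interval. CL1001.Contig1_All, 1 base longer at 214 bases, had 11 and 143 fragments (2.71 and 41.2 FPKM), 15.2-fold higher (8.23 to 31.1).

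CL1402 had its widest difference on the other side. CL1402.Contig2_All, of 499 bases, had 1 fragment in the control and 265 under low potassium (0.106 and 32.7 FPKM), 309-fold higher (55.1 to 12268). CL1402.Contig1_All, of 315 bases, had 218 and 25 fragments (36.5 and 4.89 FPKM), 7.47-fold lower (4.93 to 11.8). The FPKM sum of the cluster was 36.7 in the control and 37.6 under low potassium. Its summed fragments, 219 and 290, were 1.55-fold higher under low potassium (1.29 to 1.85). FPKM divides by length, and the 2 contigs differ in it.

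**Figure D2:**
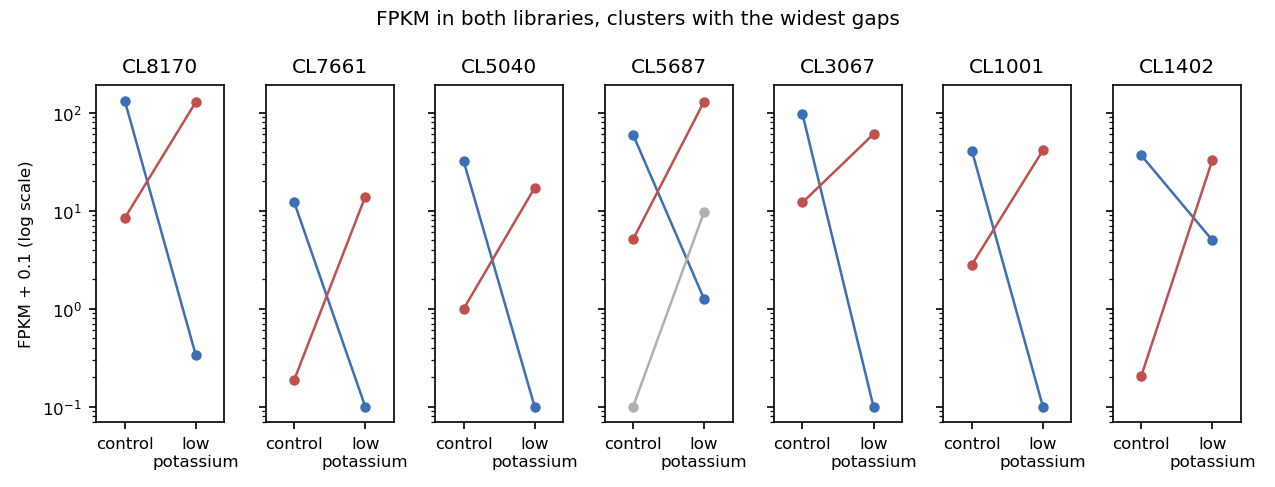
FPKM plus 0.1 on a log axis in the control and the low-potassium library for 7 of the 8 clusters with the widest gaps, 1 line per contig (red, higher members; blue, lower members; grey, a contig under 100 fragments). In each cluster the lines of the members cross; CL8170 goes from 132 and 8.34 FPKM in the control to 0.234 and 128 under low potassium.

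CL6237 was the largest of the 30 clusters, with 26 contigs, 23 of them with 100 fragments or more. Its lower members included its most abundant contigs in the control. They ranged from 8.67 to 401 FPKM there with a median of 96.0, and lay at 3.19 to 83.7 FPKM under low potassium. The higher members of CL6237 were mostly at lower levels in the control, from 0 to 26.5 FPKM with a median of 1.29. Under low potassium they reached 15.7 to 215 FPKM. The lower members took 92.5% of the FPKM of the cluster in the control and 34.7% under low potassium, while the higher members went from 2.08% to 56.3%. The sum of all 26 contigs was lower as well, by 1.28 on the log2 scale.

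The most abundant contig in the control was CL6237.Contig10_All, of 1354 bases, with 10284 and 1645 fragments (401 and 74.9 FPKM), 5.35-fold lower (5.08 to 5.64). CL6237.Contig7_All, of 1952 bases, had 10890 and 2650 fragments (295 and 83.7 FPKM), 3.52-fold lower (3.37 to 3.67). The steepest of the lower members was CL6237.Contig1_All, of 218 bases, with 499 and 21 fragments (121 and 5.94 FPKM), 20.3-fold lower (13.2 to 33.2). CL6237.Contig1_All was covered over 76.2% of its length under low potassium, and the longer CL6237.Contig10_All over 99.7%.

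Among the remaining lower members CL6237.Contig3_All had the widest difference. CL6237.Contig3_All, of 668 bases, had 830 and 63 fragments (65.6 and 5.82 FPKM), 11.3-fold lower (8.73 to 14.8). CL6237.Contig12_All had 1656 and 191 fragments (126 and 17.0 FPKM), 7.43-fold lower. CL6237.Contig11_All, with 1463 and 254 fragments (79.7 and 16.2 FPKM), and CL6237.Contig15_All, with 1125 and 204 fragments (184.5 and 39.1 FPKM), were 4.93-fold and 4.72-fold lower. These 4 lay above the median ratio of the lower members of all clusters.

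The other lower members of CL6237 were closer to the limit. CL6237.Contig2_All had 420 and 92 fragments (96.0 and 24.6 FPKM), 3.91-fold lower (3.11 to 4.95). CL6237.Contig9_All had 2540 and 645 fragments (194 and 57.6 FPKM), 3.37-fold lower (3.09 to 3.68). CL6237.Contig16_All had 239 and 65 fragments (37.3 and 11.9 FPKM), 3.15-fold lower (2.38 to 4.21). For the following pair the interval reaches under 2-fold. CL6237.Contig23_All had 89 and 28 fragments (8.67 and 3.19 FPKM), 2.72-fold lower (1.76 to 4.32), and CL6237.Contig17_All had 156 and 65 fragments (24.1 and 11.7 FPKM), 2.06-fold lower (1.53 to 2.79).

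Under low potassium the leading contig was CL6237.Contig21_All, of 217 bases, with 4 and 757 fragments (0.973 and 215 FPKM), 221-fold higher (86.0 to 813). CL6237.Contig6_All, of 1460 bases, had 20 and 1930 fragments (0.723 and 81.5 FPKM), 113-fold higher (72.8 to 185). CL6237.Contig13_All had 1 and 235 fragments (0.193 and 53.1 FPKM), 274-fold higher (48.8 to 10884). CL6237.Contig22_All had 0 and 135 fragments (0 and 15.7 FPKM), 52.5-fold higher against the floor and at least 42.2-fold by the exact interval. On it fell 4 reads with several placements in the control. In these 4 contigs the control held 20 fragments or fewer.

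The other higher members of CL6237 had more fragments in the control, CL6237.Contig24_All excepted. CL6237.Contig24_All, of 231 bases, had 7 and 163 fragments (1.60 and 43.5 FPKM), 27.2-fold higher (12.9 to 68.7). CL6237.Contig4_All, of 545 bases, had 41 and 769 fragments (3.97 and 87.0 FPKM), 21.9-fold higher (15.99 to 30.8), with no read of several placements. CL6237.Contig5_All had 55 and 248 fragments (3.70 and 19.5 FPKM), 5.27-fold higher (3.92 to 7.19), and in the control 53.4% of its length was covered. CL6237.Contig14_All had 167 and 378 fragments (26.5 and 70.0 FPKM), 2.64-fold higher (2.20 to 3.19). The higher members had 45.2% to 49.6% G and C with a median of 47.4%, and the lower members 44.7% to 54.1% with a median of 50.9%.

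Reads that fit several contigs made up 50.8% of the placements on the contigs of CL6237 with 100 fragments or more, unevenly over its members, with none on CL6237.Contig1_All, CL6237.Contig2_All, CL6237.Contig4_All and CL6237.Contig21_All. On CL6237.Contig6_All they numbered 191 in the control and 15696 under low potassium, beside 26 and 3335 unique reads. On CL6237.Contig7_All they numbered 1653 and 13958, while its unique reads went from 19342 to 4550. Reads with several placements and unique reads thus pointed in opposite directions on CL6237.Contig7_All, and their part in its fragment count was not tested. The direction of CL6237.Contig26_All, with 208 and 43 fragments (39.4 and 9.50 FPKM) and 4.14-fold lower, could not be read from unique reads, of which it had 2 and 0; it was the one member whose unique reads, set against the floor, did not give the direction of its fragments.

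CL1922 holds contigs of up to 3643 bases, and its abundant long contigs were lower. CL1922.Contig1_All, of 3643 bases, had 15901 and 6659 fragments (230.5 and 113 FPKM), 2.05-fold lower (1.99 to 2.10). CL1922.Contig4_All, of 3118 bases, had 2822 and 514 fragments (47.8 and 10.2 FPKM), 4.70-fold lower (4.28 to 5.18). CL1922.Contig2_All, with 2909 and 1153 fragments (46.5 and 21.5 FPKM), and CL1922.Contig5_All, with 2128 and 842 fragments (42.2 and 19.5 FPKM), were both 2.16-fold lower. The short CL1922.Contig6_All, of 214 bases, had 226 and 49 fragments (55.8 and 14.1 FPKM), 3.95-fold lower (2.89 to 5.5).

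One long contig of CL1922 went the other way. CL1922.Contig3_All, of 3054 bases, had 163 and 863 fragments (2.82 and 17.4 FPKM), 6.18-fold higher (5.22 to 7.35), and its unique reads went from 39 to 1105. The reads with several placements on it went from 245556 to 86268, close to the 245584 and 85936 on CL1922.Contig4_All. Reads with several placements thus stood at near-equal numbers on contigs that moved in opposite directions, and how the fragment counts divide them is not stated. The short CL1922.Contig9_All had 13 and 149 fragments (2.12 and 28.4 FPKM), 13.4-fold higher (7.59 to 25.7), and CL1922.Contig8_All, just inside the limit, had 113 and 229 FPKM and was the leading contig under low potassium in place of CL1922.Contig1_All.

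**Figure D3:**
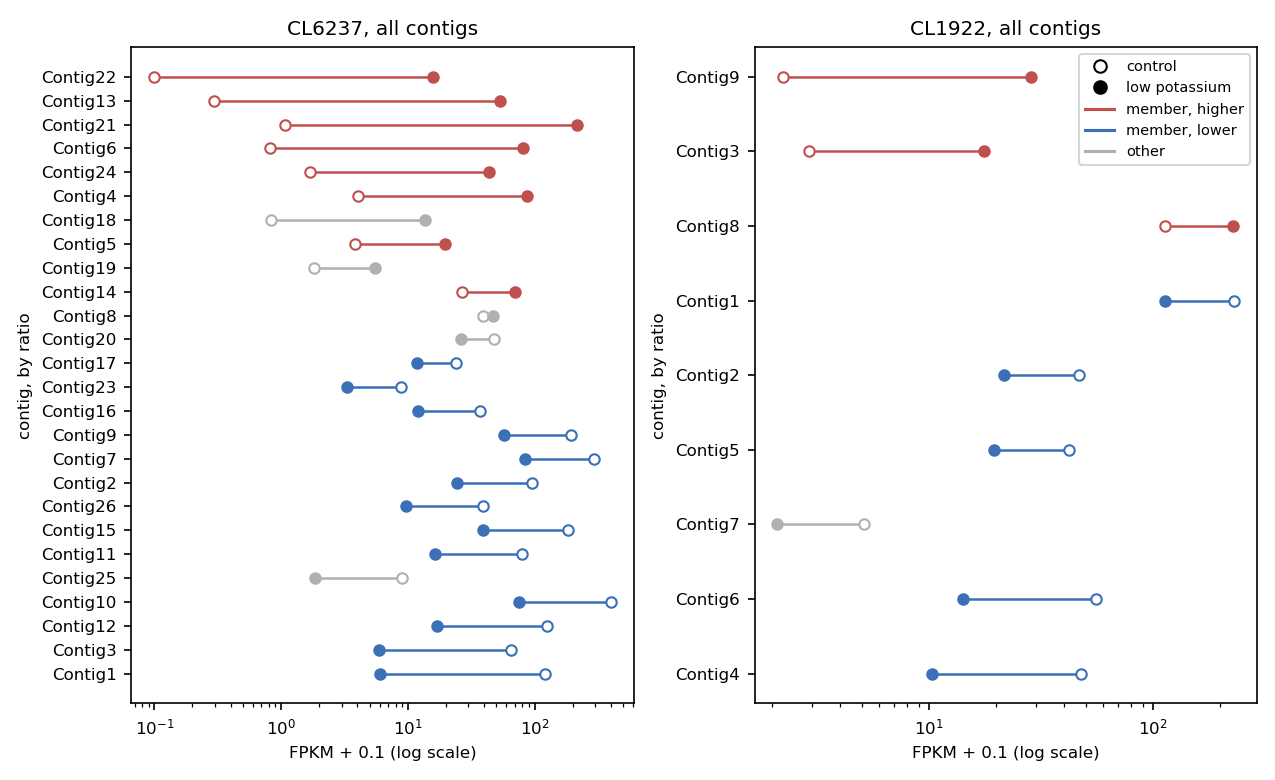
FPKM plus 0.1 on a log axis for every contig of CL6237 (left) and CL1922 (right), ordered by ratio (open, control; filled, low potassium; red, higher members; blue, lower members; grey, other contigs). In CL6237 the lower members start between 8.67 and 401 FPKM in the control and the higher members between 0 and 26.5.

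CL2825 contains the most abundant unigene of the study. CL2825.Contig3_All, of 4682 bases and 54.9% G and C, had 3968020 and 1156269 fragments (44756 and 15228 FPKM), 2.94-fold lower (2.93 to 2.95), and ranked 1 by FPKM in the control and 3 under low potassium. With it the 97 members took 21.4% of the control library and 7.49% of the low-potassium library. Without it the other 96 took 0.462% and 0.360%. Its opposite in the cluster was a rare contig, CL2825.Contig2_All of 391 bases, with 31 and 85 fragments (4.19 and 13.4 FPKM), 3.20-fold higher (2.10 to 5.0). No read with several placements fell on CL2825.Contig3_All. The opposition here thus sets a minor contig, at 4.19 FPKM in the control, against a dominant one at 44756 FPKM.

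In CL9608 and CL3727 the longest contig was among the higher members. CL9608.Contig1_All, of 1015 bases, had 2463 and 5055 fragments (128 and 307 FPKM), 2.40-fold higher (2.28 to 2.52), and led the cluster in both libraries. CL9608.Contig2_All, of 858 bases, had 1861 and 525 fragments (115 and 37.7 FPKM), 3.04-fold lower (2.75 to 3.35). CL9608.Contig7_All had no read of any kind in the control and 186 fragments under low potassium (30.7 FPKM). It was 72.4-fold higher against the floor, and at least 58.3-fold by the exact interval. Reads with several placements on CL9608.Contig1_All went from 5352 to 1794, against its unique reads, which went from 3920 to 7942.

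CL3727.Contig5_All, of 3293 bases, had 3266 and 6493 fragments (52.4 and 122 FPKM), 2.32-fold higher (2.23 to 2.42), and CL3727.Contig4_All had 52 and 103 (5.25 and 12.1 FPKM), 2.31-fold higher (1.64 to 3.29). The long CL3727.Contig2_All, of 2915 bases, was 1.73-fold higher (1.65 to 1.81) and no member. Against them stood a single short contig, CL3727.Contig1_All of 218 bases, with 95 and 6 fragments (23.0 and 1.70 FPKM), 13.6-fold lower (6.0 to 37.9). The higher members of CL3727 fall under 2-fold with TMM scaling.

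CL1190 set 5 higher members against 1 lower. Its 5 higher members, of 820 to 902 bases, were 2.52-fold to 3.07-fold higher, among them CL1190.Contig2_All with 471 and 1238 fragments (29.4 and 90.1 FPKM), 3.07-fold higher (2.76 to 3.42). CL1190.Contig1_All had 443 and 955 fragments (27.1 and 68.2 FPKM), CL1190.Contig6_All 259 and 628 (16.7 and 47.2 FPKM), CL1190.Contig4_All 167 and 397 (9.78 and 27.1 FPKM) and CL1190.Contig3_All 132 and 315 (8.34 and 23.2 FPKM). On 3 of the 5, reads with several placements outnumbered unique reads in both libraries, and CL1190.Contig3_All had just 2 and 6 unique reads, so these contigs are not 5 separate measurements. The lower member CL1190.Contig5_All, of 287 bases, had 147 and 48 fragments (27.0 and 10.3 FPKM), 2.62-fold lower (1.88 to 3.71), all of whose reads were unique.

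CL654 was the reverse, a cluster whose bulk stayed close to no difference. Of its 18 contigs, 16 had 100 fragments or more, and 12 of those were within 2-fold. The leading contig, CL654.Contig1_All, had 4882 and 4123 fragments (147 and 145 FPKM), and the summed fragments of the cluster had a ratio of 0.9998 (0.976 to 1.02). The 4 members were minor parts of it. CL654.Contig16_All had 424 and 128 fragments (48.5 and 17.1 FPKM), 2.84-fold lower (2.32 to 3.48), and CL654.Contig15_All 467 and 177 (21.0 and 9.30 FPKM), 2.26-fold lower (1.90 to 2.70). CL654.Contig10_All had 33 and 189 (6.25 and 41.8 FPKM), 6.69-fold higher (4.60 to 10.0), and CL654.Contig17_All 55 and 130 (7.52 and 20.8 FPKM), 2.76-fold higher (2.00 to 3.86).

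The remaining 16 clusters held 17 higher and 19 lower members. The higher ones were 2.05-fold to 128-fold higher with a median of 2.74-fold, and reached 11.7 to 447 FPKM under low potassium. The lower ones were 2.03-fold to 106-fold lower with a median of 2.89-fold, from 2.46 to 156 FPKM in the control. A few of them are described here after their values were seen. CL773 is a set of 3 contigs of 639, 658 and 677 bases with 41.2% to 41.5% G and C and no read with several placements. CL773.Contig2_All had 373 and 0 fragments (30.8 and 0 FPKM), 106-fold lower against the floor and at least 86.2-fold by the exact interval. CL773.Contig3_All had 52 and 154 (4.06 and 14.0 FPKM), 3.46-fold higher (2.51 to 4.83). CL773.Contig1_All, with 65 and 58 (5.22 and 5.44 FPKM), was within counting error of no difference.

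CL4563.Contig3_All, of 969 bases, had 1917 and 62 fragments (104 and 3.95 FPKM), 26.5-fold lower (20.6 to 34.7). In the same cluster CL4563.Contig1_All had 392 and 1821 (82.5 and 447 FPKM), 5.42-fold higher (4.86 to 6.07), the highest level of a higher member in the low-potassium library. CL4563.Contig2_All, the leading contig of that cluster in both libraries with 388 and 734 FPKM, was just short of the limit. CL4217.Contig4_All, of 1548 bases, had 347 and 2137 fragments (11.8 and 85.1 FPKM), 7.19-fold higher (6.42 to 8.08), and CL4217 had the highest ratio of summed fragments of the 30 clusters, 5.10-fold (4.66 to 5.59). CL731.Contig4_All had 3 and 300 fragments (0.208 and 24.3 FPKM), 117-fold higher (39.6 to 569).

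The summed fragments of a cluster show what is left of the opposite differences. In 22 of the 30 clusters the totals were within 2-fold, while 4 totals were at least 2-fold higher (CL4217, CL1190, CL5687 and CL731) and 4 at least 2-fold lower (CL2825, CL6237, CL2343 and CL5040). The median log2 ratio of the totals was 0.15, against 0.34 over the other 4481 clusters with at least 2 contigs of 100 fragments or more. By library totals 17 of the 30 were above no difference, and 12 were above the median of the other clusters. In 6 clusters the counting interval of the total held 1, among them CL8170 at a ratio of 0.923 (0.824 to 1.03) and CL1001 at 0.949 (0.755 to 1.19). Of the other clusters 91.6% had totals within 2-fold, against 73.3% of the 30. The 30 were chosen for contigs beyond 2-fold on both sides, which bears on their totals. Their share within 2-fold, their median and the count of 12 are therefore given as a description.

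**Figure D4:**
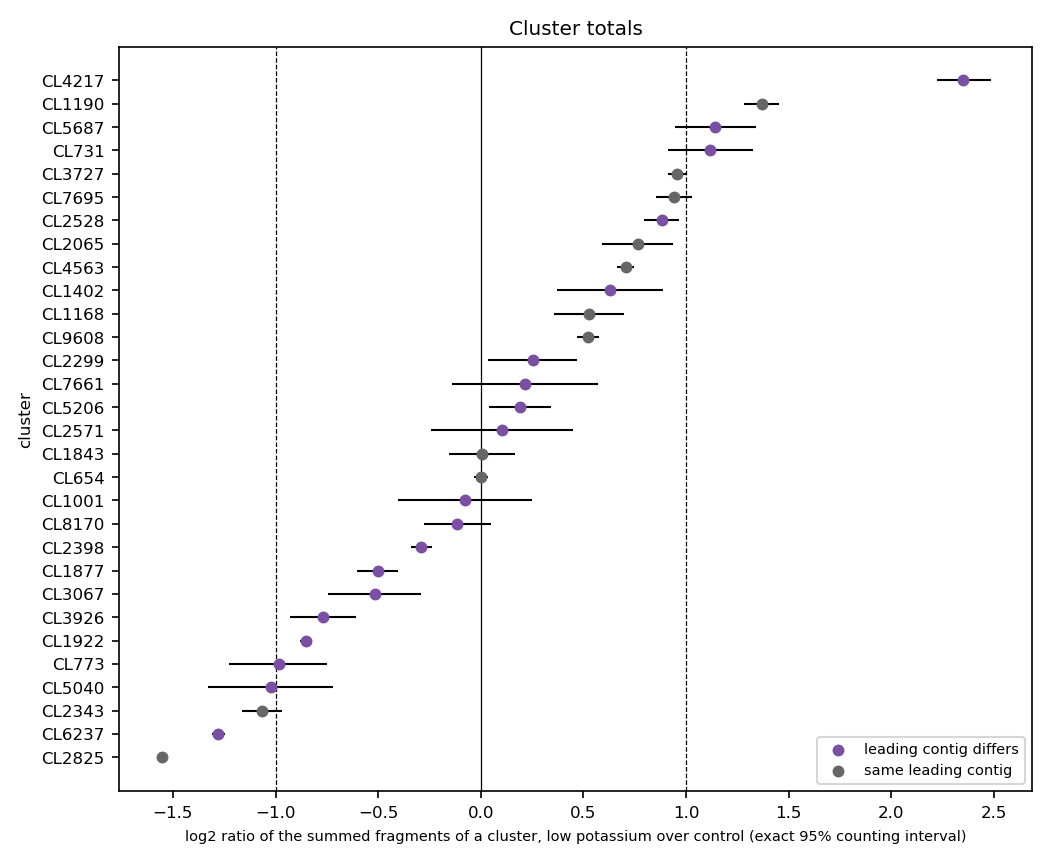
Log2 ratio of the summed fragments of each of the 30 clusters, low potassium over control, with the exact 95% counting interval (purple, the contig with the highest FPKM differs between the libraries; grey, it is the same; dashed lines, 2-fold). Totals run from -1.56 in CL2825 to 2.35 in CL4217.

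The contig with the highest FPKM was another one under low potassium in 19 of the 30 clusters, and the same one in the other 11. Among the 9 clusters that consist of 2 contigs, it differed in 8, with CL7695 as the exception. In the other clusters with at least 2 contigs of 100 fragments or more the leading contig differed in 17.1%, but the choice of opposite members bears on this measure, and the shares are not compared. Over the 30 clusters, the lower members held a median cluster share of FPKM of 72.0% in the control and 6.18% under low potassium. The higher members held a median of 10.7% and 68.1%. The rule chose the members by the same FPKM ratios, so it bears on these shares too, and they are a description. The lead stayed in place in CL654, CL2825, CL3727, CL9608 and 7 others.

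Length and base composition were not used by the rule. The members were short. They had a median of 491 bases (quartiles 304 and 957), against 1078 bases (667 and 1614) for all cluster contigs with 100 fragments or more. The other 50 contigs of the same clusters had a median of 482 bases (281 and 919). As 22 of these had under 100 fragments, the 50 do not show whether short length was particular to the members. Under 300 bases were 24 of the 97 members, 24.7%, and 15 of the 50 others, against 4.61% of all those cluster contigs. Higher and lower members had medians of 491 and 486 bases, and the higher members were the longer ones on average in 15 clusters and the lower in 15. The members had a median of 45.9% G and C and the other contigs of the clusters one of 44.9%, against 41.4%. Without CL6237 and CL1922 the medians were 41.8% in the higher and 41.6% in the lower members, so the excess rests on those 2 clusters. Within a cluster the higher members were richer in G and C in 20 of 30, with a median difference of 1.14 percentage points. The differences ranged from -8.66 in CL3727 to 6.80 in CL9608. A rank-based interval of that median, -0.16 to 2.21, holds 0. It takes the 30 chosen clusters as independent, describes their spread and is no test. The median difference was 0.27 with a 1.5-fold limit, 0.605 with 200 fragments or more, 1.88 with a 4-fold limit and 1.951 with 20 fragments or more. Between the contigs with 100 fragments or more of a cluster, the range in G and C had a median of 3.07 percentage points in the 30 clusters and 1.41 in the other clusters. No p-value is given for these, because contigs of a cluster share sequence and are not replicates.

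Reads with several placements are those that fit more than one unigene. Over the contigs with 100 fragments or more of a cluster they made up 2.37% of the placements in the median of the 30 clusters, against 37.7% in the median of the other clusters. The shares are given as a description, because whether the rule favours clusters with few reads of several placements was not tested. In 10 of the 30 clusters there were none at all, and for these (CL773, CL1001, CL1402, CL2343, CL3067, CL3926, CL5040, CL7661, CL7695 and CL8170) the opposite directions rest on reads placed once. In 27 of the 97 members such reads outnumbered unique ones. By uniquely placed reads as a share of their library total, 96 of the 97 members lay on the same side of no difference as by fragments, and 93 were at least 2-fold apart. These reads come from the same libraries and are no independent support.

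Most members were covered over nearly their whole length in both libraries, with a median of 95.7% for the higher members in the control and 97.2% for the lower members under low potassium, where reads were placed. In the library where they were low, 16 of 46 higher members with reads in the control and 12 of 45 lower members with reads under low potassium had less than 90% of their length covered; in the library where they were high these numbers were 1 of 47 and 2 of 50. Covered length was low with many reads in a few members. Of the members with 100 placed reads or more, 4 of 75 in the control and 6 of 77 under low potassium were under 90% covered, against 2.10% and 1.78% of all cluster contigs with 100 fragments or more. CL5206.Contig1_All, of 366 bases, had 99.5% of its length covered by 1071 reads in the control but 51.9% by 255 reads under low potassium, all unique. Its partner CL5206.Contig3_All, of 201 bases, had 21 and 369 fragments (5.52 and 113 FPKM), 20.5-fold higher (13.2 to 33.5). CL2299.Contig1_All, of 255 bases, was 71.8% covered by 347 reads in the control and 99.6% by 144 unique and 17 other reads under low potassium. CL6237.Contig14_All, a higher member, was 73.6% covered by 150 unique and 464 other reads in the control and 99.7% by 351 and 141 under low potassium. In these contigs the reads of one library left a stretch without coverage that the other library covered; its part in their ratios was not tested.

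**Figure D5:**
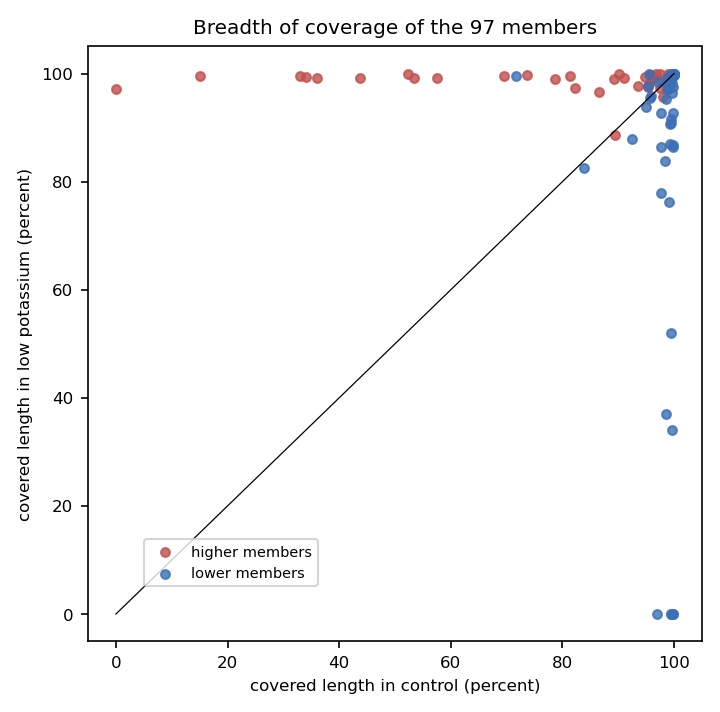
Percent of contig length covered in the control (horizontal) and the low-potassium library (vertical) for the 97 members (red, higher; blue, lower; contigs without any read in a library are drawn at 0). Most members lie near full coverage in both libraries; CL5206.Contig1_All lies at 99.5% and 51.9%.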

How the data were processed

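Roots of alligator weed were sequenced as RNA, 1 library per condition. The authors deposited a joint table of raw fragment counts per unigene; summed here, both columns gave the totals stated per the file headers. Its FPKM values, by the authors, were recomputed from counts, length and totals within 0.001 for all 64763 unigenes in each library. It also holds the authors' log2 ratio, p-value and FDR per unigene, from a test that is not named. A coverage table per library gives, per the file headers, mean depth of coverage, counts of uniquely and multiply placed reads, and the percent of length covered and of G and C. The sources used here do not name an assembler, aligner or counting program. Per-sample columns left unused numbered 0.

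A ratio is the fraction of library fragments under low potassium divided by that in the control, with an exact 95% interval (Clopper-Pearson, applied to 1 library's part of both counts and turned into a ratio). Intervals and floors cover the counting error of fragments only, and no variation between plants or libraries. Reads without molecular identifiers can be copies of one molecule, so the intervals can be too narrow even for a count of molecules. A count of 0 was set to a floor of 3 fragments per library, except in the rule that chose the members, where 0 FPKM became 0.01. A contig missing from a coverage table was taken to have no read there. Cluster totals sum all contigs of a cluster; the leading contig has the highest FPKM among those with 100 fragments or more. Named with values are the members of the 8 clusters with the widest gap by interval bounds, of the 5 with the most member fragments and of those with at least 4 members, 14 clusters in all, and the contigs nearest the limits. Contigs named from the other 16 were chosen after their values were seen.

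The search for opposed clusters and the intervals were tested on simulated Poisson counts. The members, rules and measures were chosen with earlier results of these data known. Alternatives were TMM scaling (edgeR 4.0.16 in R 4.3.3, unigenes with 20 fragments or more), totals without the 2 most abundant unigenes, other fragment minimums and fold limits, the whole interval, uniquely placed reads, a floor for 0 and members summed alone. Python 3.11.15, pandas 2.3.3 and scipy 1.17.1 were used.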

Additional observations from a re-analysis of the deposited data

How the results depend on the processing

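Among 59 values recomputed under the alternatives, 17 moved. Those with other limits, or with fewer or more contigs, follow by construction. With unique reads both the measure and the unit of the fragment limit changed. The 30 clusters, 47 higher and 50 lower members and 19 clusters with another leading contig became 65, 103, 98 and 33 with a 1.5-fold limit, and 12, 19, 18 and 11 with a 4-fold limit. With 20 fragments or more they were 108, 152, 148 and 80, and with 200 or more 18, 24, 35 and 12, where the 35 lower members stayed within 1.5 times. By uniquely placed reads 31 of 43 clusters had another leading contig; those 43 hold all 30, and the cause was not tested. Leaving out CL6237 and CL1922, an alternative chosen after seeing the data, left 32 lower and 36 higher members. TMM scaling, totals without the 2 most abundant unigenes, the floor and the whole interval beyond 2-fold kept each count within 1.5 times, at 25, 26, 30 and 23 clusters. The median log2 ratio of the cluster totals was 0.15, with a rank-based interval over the 30 clusters of -0.29 to 0.63. With the rule rerun under TMM scaling the median was -0.19 over 25 clusters. Without the 2 most abundant unigenes it was -0.16 over 26 clusters, so its sign was not the same under each scaling. No paired analysis was possible because there is a single library on either side, and none could be left out. Depth limits the ratios of contigs with 0 or few fragments in one library, such as CL8170.Contig1_All with 660 and 1 fragments and an interval of 101 to 22359.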
